A study of Bos taurus with 8 samples.

Results

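The genes described here are the numbered zinc finger genes of cattle, those whose symbol is ZNF followed by digits. Of 273 such genes in the deposited table, 216 had a mean of at least 1 CPM (reads per 1000000 reads) over the 8 libraries and are the members, and 57 did not. The limit uses the level and not a difference between groups. It passed ZNF333 (mean 1.03 CPM) and ZNF575 (1.02 CPM), and left out ZNF7 (0.986 CPM) and ZNF395 (0.947 CPM). Of the members, 17 have a letter after the digits, such as ZNF385B.

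Bovine embryos of 4 cells and of 8 cells were sequenced for RNA, with 2 libraries from each of 4 groups and 5 embryos pooled per library. All embryos came from abattoir oocytes that were matured and fertilised in vitro with frozen Holstein semen. The edited groups had received PEmax and a guide RNA by cytoplasmic injection of the zygote, to write a change named A148G into RPL12, which encodes a component of the ribosome's large subunit. In PEmax, a prime editor improved for activity in cells, a nicking Cas9 carries a reverse transcriptase. The control groups are labelled only as control. The labels do not say whether they were injected, nor what share of alleles was edited, and the titles call the samples base edited. The 4-cell samples carry oocytes as source name and cell type, and their titles were followed. Messenger RNA was amplified as full-length cDNA and made into libraries by tagmentation. No label says that libraries of a group came from separate batches of embryos, so the p-values measure the spread between libraries, which may be technical.

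Zinc finger proteins of this kind read DNA with small folds in which a zinc ion is held by cysteines and histidines, and a protein usually carries many of them in a row. In mammals the largest class joins such fingers to a KRAB domain, which recruits the corepressor TRIM28 and through it the histone methyltransferase SETDB1, and silences transposable elements and some imprinted genes. Other numbered ZNF genes encode activators, RNA-binding proteins or factors of ribosome assembly, because the number is a catalogue entry and says nothing of function. In the early bovine embryo most transcripts are still those stored by the oocyte, and the embryo's own transcription rises strongly around the 8-cell stage.

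Each library held between 33527531 and 35122409 reads in genes, and the members took 0.546% to 0.844% of them. RPL12 stood at 159 and 174 CPM in the 4-cell control libraries, at 27.5 and 33.6 in the 4-cell edited, at 96.3 and 97.6 in the 8-cell control and at 14.1 and 11.9 in the 8-cell edited libraries. Across the members, r between both libraries of a group was 0.957 to 0.969 for log2(CPM + 1), beside 0.971 to 0.978 across all genes tested. Listed markers of other cells also differed between the groups. Of 22 tested cumulus and granulosa cell markers (25 listed), 16 were called lower and 2, HAS2 and GREM1, higher in edited embryos at the 4-cell stage, and 8 lower and 0 higher at the 8-cell stage. Their summed level was 6589 and 9465 CPM in the 4-cell control libraries and 1965 and 2770 in the edited ones, and 4511 and 4577 against 732 and 1368 CPM at the 8-cell stage. Much of these sums was the single gene LUM. It had 2878 and 5965 CPM in the 4-cell control libraries and 1282 and 1897 CPM in the edited ones. At the 8-cell stage LUM had 3052 and 2449 CPM in control and 120 and 749 CPM in edited libraries. FOXL2, a defining granulosa cell gene, had at most 0.464 CPM in any library. Other listed markers were well expressed in the 4-cell control libraries. There HSD3B1 had 283 CPM in both, against 5.87 and 17.8 CPM in the edited ones. CYP11A1 had 227 and 201 against 3.33 and 14.5 CPM. HAS2, called higher, had 24.3 and 55.4 against 132 and 124 CPM. Oocyte markers more often went the other way, with 10 of 27 called higher and 1, H1-8, lower in edited embryos at the 4-cell stage. Of the 27, 19 had a positive difference. Their sums were 21240 and 27790 CPM in the 4-cell control libraries against 48130 and 57340 in the edited ones. Much of these sums was the single gene BTG4, with 12020 and 14930 CPM in control and 28840 and 37560 CPM in edited libraries. At the 8-cell stage 26 of the 27 had a positive difference, 3 were called higher and 0 lower by limma, and the sums were 50890 and 38380 CPM in control against 55000 and 57430 CPM in edited libraries. The part of these cell markers in the results was not tested apart from editing. Both the scaling and the covariate given below use marker levels that differed between edited and control libraries, and cannot separate them from editing. Summed epithelial markers were 408 and 476 CPM for the 4-cell controls, against a range of 119.7 to 239.7 CPM over the other 6 libraries, with OVGP1 and CLDN3 at most 0.264 CPM. Of 6 tested (10 listed), 4 were called lower and 1, CDH1, higher at the 4-cell stage, and 3 lower and 0 higher at the 8-cell stage, and UPK1B made up 279 and 331 CPM of the 4-cell control sums. Blood cell markers summed to 4.56 to 6.42 CPM in 6 libraries and to 11.7 and 12.8 CPM in the 8-cell edited ones, where CD3E was called higher (log2 difference 1.23, limma adjusted p 0.0369), and PTPRC had at most 0.673 CPM anywhere. In such bulk libraries fewer cells of a type and less RNA per cell cannot be told apart.

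Some members share a row of the table with another gene. For 9 members the reads were identical in all 8 libraries to those of another symbol: ZNF432 with ZNF613 and ZNF2 with ZNF892, both pairs of members, ZNF454 with ZFP2, ZNF180 with CEACAM20, ZNF568 with LOC101907883, ZNF75D with LOC107131241 and ZNF664 with LOC101904642. The members thus hold 214 distinct rows. Over all tested genes 227 (1.87%) share a row, among them AMH of the granulosa markers, against 4.17% of the members. For these genes the table does not show which symbol the reads belong to. Zinc finger genes also have close paralogs, and how the counting by the authors divided reads between such copies is not given in the sources used here.

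The first comparison asked how edited and control embryos differed in these transcripts at the 4-cell stage. More members were higher than lower in edited embryos, most often the well expressed ones. By limma at an adjusted p under 0.05, 46 members (21.3%) were called higher, beside 18.9% of all genes tested, and 26 (12.04%) lower, beside 25.8%. The 72 calls in either direction are 33.3% of the members, beside 44.7% of all genes. The median log2 difference of the members was 0.30, and that of all 12129 genes tested -0.02. Without regard to the test, both edited libraries lay above both control libraries for 93 members (43.1% beside 33.5% of all genes) and below them for 51 (23.6% beside 37.5%). The calls of higher level depended on the first 4-cell control library, without which 22 members were called higher and 19 lower. Scaled to the oocyte markers, which shifts the median of all genes to -0.45, the split became 13 higher and 44 lower with a member median of -0.12, which was 0.32 above that of all genes as it was 0.31 above without this scaling. Of the genes given below as higher at this stage, ZNF182, ZNF214, ZNF260, ZNF280D, ZNF345, ZNF461, ZNF518A and ZNF568 were also called with it, whereas ZNF24, ZNF77, ZNF93, ZNF106, ZNF215, ZNF226, ZNF280B, ZNF330, ZNF420, ZNF518B, ZNF566 and ZNF569 were not. With the mean level of the cumulus markers as a covariate 0 members were called by limma in either direction, and 12 higher and 7 lower had an unadjusted p under 0.05. That level itself differed between edited and control libraries, so this fit cannot separate it from editing.

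ZNF260, which encodes a protein made of fingers alone, had the smallest p among the members that rose. Its level was 53.3 and 81.5 CPM in control and 201 and 228 CPM in edited libraries at the 4-cell stage, a log2 difference of 1.69 (SE 0.241, limma adjusted p 5.15e-05). ZNF214 stood at 3.8 and 6.1 CPM in control and at 28.3 and 22.1 CPM in edited embryos (log2 difference 2.15, SE 0.339, limma adjusted p 0.000114). In both genes the 4-cell control libraries were the lowest of all 8, and the edited libraries of both stages the highest. ZNF215, the neighbour of ZNF214 in a region that is imprinted in humans, was at 376 and 474 CPM in control and 929 and 890.1 CPM in edited libraries, and rose by 1.11 (SE 0.228, limma adjusted p 0.00102). Among all members ZNF215 drew the most reads, 704 CPM on average. CPM are not per length, so this is no rank of transcript number.

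Several members with a KRAB domain in humans were among those that rose. ZNF182 went from 13.4 and 20.8 CPM in control to 57.4 and 49.9 CPM in edited libraries (log2 difference 1.62, limma adjusted p 0.000254). ZNF568, whose mouse counterpart silences a placental transcript of Igf2, went from 20.5 and 24.8 CPM to 63.3 and 60.0 CPM (1.41, limma adjusted p 0.000419), in a row it shares with LOC101907883. ZNF93, known in humans as a repressor of LINE-1 elements, went from 118 and 136 to 252 and 311 CPM (1.14, limma adjusted p 0.000597). None of these groups overlapped at the 4-cell stage. ZNF226 and ZNF77, also KRAB genes, stood at 184 and 301 CPM against 540.3 and 335 CPM, and at 144 and 233 against 317 and 346 CPM, with log2 differences of 0.85 in both and limma adjusted p of 0.0149 and 0.00825. ZNF330, a nucleolar protein, rose by 0.87 (181 and 299.6 against 397 and 455 CPM, limma adjusted p 0.00815). In each of these last 3 genes the second control library lay nearer to the edited libraries than the first did.

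ZNF280D and ZNF280B, relatives of the fly insulator protein suppressor of Hairy wing, both rose. ZNF280D stood at 64.3 and 99.5 CPM in control and 207 and 198 CPM in edited libraries (log2 difference 1.33, limma adjusted p 0.000478), and ZNF280B at 26.8 and 38.2 against 56.9 and 73.2 CPM (0.99, limma adjusted p 0.00529). ZNF385B had the largest drop of the 216 members at the 4-cell stage. It carries fingers of the kind that binds double-stranded RNA in related proteins, and went from 247 and 153 CPM in control to 18.4 and 33.9 CPM in edited libraries (log2 difference -2.91, SE 0.305, limma adjusted p 3.14e-06). The summed cumulus markers were also lower in these edited libraries, which holds beside any gene called lower. Between the control libraries ZNF385B was higher in the first, and that sum in the second (6589 and 9465 CPM). LUM, much of that sum, had 2878 and 5965 CPM there, and single markers went either way. SERPINE2 (691 and 347 CPM) and VIM (582 and 523 CPM) were higher in the first control library. VCAN (93.5 and 113 CPM) and STAR (159 and 193 CPM) were higher in the second. A link of ZNF385B to these markers was not tested. ZNF576 went from 29.8 and 18.3 to 2.78 and 4.59 CPM (-2.41, limma adjusted p 0.000121), ZNF771 from 59.1 and 39.1 to 12.2 and 6.99 CPM (-2.26, limma adjusted p 0.000496), ZNF511 from 40.3 and 29.4 to 8.16 and 7.25 CPM (-2.03, limma adjusted p 0.000211) and ZNF527 from 13.8 and 17.1 to 3.01 and 4.77 CPM (-1.77, limma adjusted p 0.00146). In all 5 genes the groups lay well apart, and in 4 of them, all but ZNF527, the first control library was the highest of all 8.

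**Figure D1:**
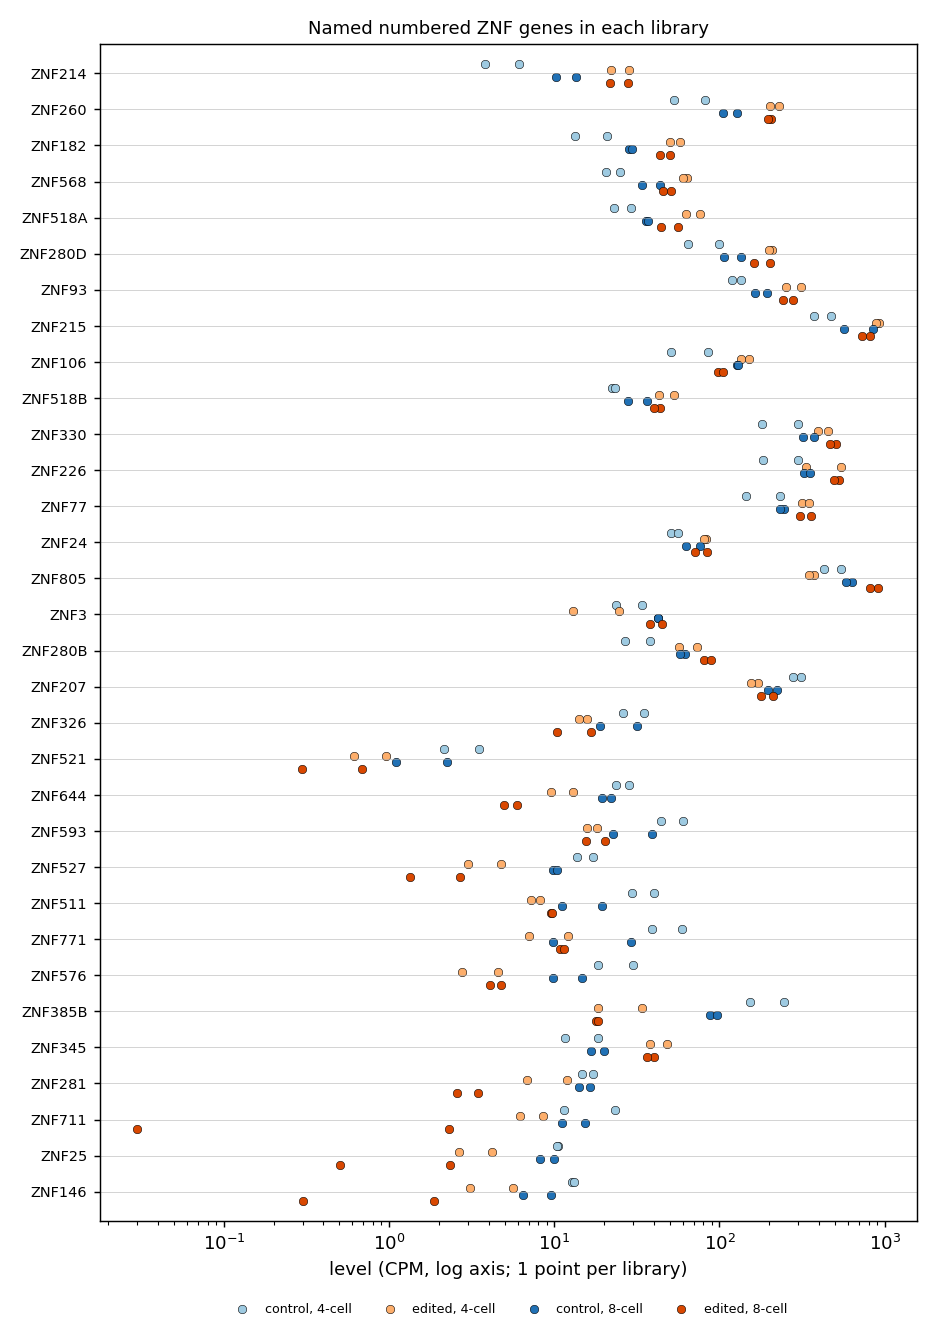
Level of named members that passed the test in a comparison, in CPM on a log axis, with 1 point per library. Members named only as part of a set, and ZNF140, ZNF358 and ZNF789, are left out. Light points are 4-cell and dark points 8-cell libraries, blue is control and orange is edited. From ZNF214 to ZNF24 the light blue points of the 4-cell controls lie below the light orange ones, and from ZNF207 to ZNF385B above them.

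Members with roles outside transposon silencing were followed by lists of known function. Of the 3 members that act on ribosomes or translation, 1 fell at the 4-cell stage (33.3% beside 25.8% of all genes). ZNF593, a factor of large-subunit assembly, stood at 60.3 and 44.2 CPM in control and 18.1 and 15.9 CPM in edited libraries (log2 difference -1.55, SE 0.317, limma adjusted p 0.000973). ZNF622, which acts on large subunits in the cytoplasm, stood at 141 and 127 against 136 and 80.2 CPM (-0.35, limma adjusted p 0.307). ZNF598, the ubiquitin ligase of collided ribosomes, stood at 9.07 and 7.51 against 11.5 and 8.74 CPM (0.25, limma adjusted p 0.602). At the 8-cell stage the log2 differences of ZNF593, ZNF622 and ZNF598 were -0.72, 0.14 and 0.71, and none passed the test (limma adjusted p 0.157 to 0.783).

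Of 14 listed chromatin factors 12 were members. At the 4-cell stage 2 rose (16.7% beside 18.9% of all genes) and 1 fell (8.33% beside 25.8%), shares below those of all genes. ZNF518A and ZNF518B are paralogs, the second a partner of the histone methyltransferase G9a. ZNF518A stood at 22.9 and 29.3 CPM in control against 63.0 and 76.4 CPM in edited libraries (log2 difference 1.39, limma adjusted p 0.000532), and ZNF518B at 22.3 and 23.3 against 52.9 and 43.0 CPM (1.03, limma adjusted p 0.00506). ZNF644, another partner of G9a, fell from 23.6 and 28.4 to 9.54 and 13.0 CPM (-1.15, limma adjusted p 0.0087). ZNF274, which brings SETDB1 to zinc finger gene clusters, stood at 37.1 and 39.4 against 48.1 and 43.5 CPM (0.25, limma adjusted p 0.581). ZNF445, a guardian of imprints, stood at 3.48 and 4.25 against 5.21 and 5.03 CPM (0.34, limma adjusted p 0.519). ZNF410, the activator of CHD4, stood at 87.6 and 108 against 63.1 and 66.0 CPM (-0.58, limma adjusted p 0.0503), with groups that did not overlap. The other 6 chromatin members did not pass, with log2 differences between -0.08 and 0.57.

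Among 8 members listed as promoter activators 1 rose at the 4-cell stage (12.5% beside 18.9% of all genes) and 0 fell by limma. Whether each of them activates or represses in these embryos was not tested. The 1 that rose was ZNF24, from 50.7 and 56.2 to 83.3 and 80.2 CPM (log2 difference 0.60, limma adjusted p 0.0463). ZNF143, which activates small nuclear RNA and many messenger RNA promoters, stood at 74.3 and 109.7 against 122 and 135 CPM (0.50, limma adjusted p 0.0969). Of 7 members that bind RNA, act in mitosis or attach SUMO, 1 rose (14.3% beside 18.9%) and 2 fell (28.6% beside 25.8%), shares near those of all genes. ZNF106, an RNA-binding protein, rose from 51.2 and 84.9 to 152 and 134 CPM (1.10, limma adjusted p 0.00214). ZNF207, which loads BUB3 on kinetochores, fell from 277 and 310.3 to 172 and 156 CPM (-0.84, limma adjusted p 0.00413). ZNF326, which links transcript elongation to splicing, fell from 34.7 and 25.9 to 15.7 and 14.1 CPM (-0.97, limma adjusted p 0.0294). ZNF638, a nuclear RNA-binding protein and one of the best covered members, stood at 159 and 209 against 209 and 262 CPM (0.36, limma adjusted p 0.209). Of 3 developmental regulators that were members, with low means of 1.31 to 1.76 CPM, 1 fell (33.3% beside 25.8% of all genes). This was ZNF521, a regulator of blood and nerve cell precursors, from 3.51 and 2.14 to 0.955 and 0.614 CPM (-1.08, limma adjusted p 0.0393). ZNF423 and ZNF536 did not pass. The other 4 listed, ZNF365, ZNF503, ZNF703 and ZNF750, lay under the limit.

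The level of a member went with its call. At the 4-cell stage 0 of 79 members with a mean of 1 to 5 CPM were called higher (3.68% of all genes at that level) and 13 lower (16.5% beside 22.2%). Of 74 members at 5 to 20 CPM 17 were called higher (23.0% beside 11.9%) and 8 lower (10.8% beside 27.0%). Of 63 members at 20 CPM or more 29 were called higher (46.0% beside 31.1%) and 5 lower (7.94% beside 27.1%), with a median log2 difference of 0.61 beside 0.19 for all genes. At the 8-cell stage the counts from the lowest class up were 0, 0 and 2 higher (0.553%, 0.931% and 1.45% of all genes) and 5, 8 and 2 lower (6.33%, 10.8% and 3.17% beside 8.40%, 14.0% and 18.1%). The mean that sets these classes includes the libraries compared, and the log2(CPM + 1) scale shrinks differences at low levels. At 20 CPM or more the members called lower were ZNF207, ZNF326, ZNF385B, ZNF593 and ZNF771.

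**Figure D2:**
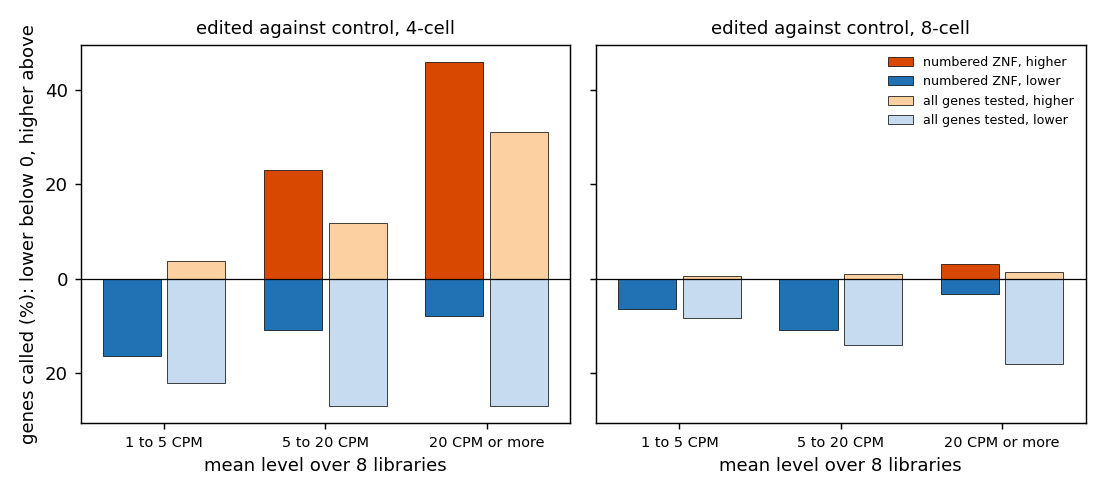
Share of genes called higher (above 0) and lower (below 0) in edited embryos, in percent, by mean level over the 8 libraries, for the 216 members (dark bars) and for all genes tested (light bars). At the 4-cell stage the members at 20 CPM or more were called higher in 46.0% and lower in 7.94%.

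At the 8-cell stage fewer members differed, and nearly all of those were lower in edited embryos. By limma 2 members were called higher (0.926% beside 1.08% of all genes) and 15 lower (6.94% beside 14.5%). The member median was 0.07 and that of all genes 0.00. Both edited libraries lay above both controls for 72 members (33.3% beside 27.7%) and below for 54 (25% beside 32.7%). The limma count of 2 higher was 0 without the first 8-cell edited library (5 at an unadjusted p under 0.05), 1 without the second 8-cell edited, the first 4-cell edited or either 8-cell control library, and 6 without either 4-cell control library. The count of 15 lower was 10 without the second 8-cell control library and 11 without the second edited one. With the covariate of cumulus markers 0 members were called by limma, and 1 higher and 3 lower had an unadjusted p under 0.05. Scaled to the oocyte markers, where the median of all genes is -0.40, limma called 0 higher (0 at an unadjusted p under 0.05) and 26 lower.

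ZNF385B was again far lower, at 87.5 and 97.1 CPM in control and 17.8 and 18.3 CPM in edited libraries (log2 difference -2.29, SE 0.305, limma adjusted p 6.61e-05). The deepest drop at this stage was that of ZNF711, an X-linked promoter-binding relative of ZFX. It stood at 11.2 and 15.4 CPM in control and at 0.0299, which is 1 read, and 2.31 CPM in edited libraries (-2.94, SE 0.497, limma adjusted p 0.000489). ZNF281, a partner of NANOG in embryonic stem cells, stood at 16.4 and 14.2 against 2.57 and 3.47 CPM (-2.03, limma adjusted p 0.000774). ZNF644 stood at 19.4 and 22.1 against 5.92 and 4.97 CPM (-1.76, limma adjusted p 0.000982). ZNF25 went from 10.0 and 8.25 to 0.508 and 2.34 CPM (-2.17, limma adjusted p 0.00158), ZNF146, a protein of fingers alone, from 6.49 and 9.61 to 1.88 and 0.299 CPM (-2.20, limma adjusted p 0.00185) and ZNF527 from 9.81 and 10.3 to 1.34 and 2.70 CPM (-1.91, limma adjusted p 0.00199). In each of these genes both edited libraries lay below both controls. The 2 members that rose were ZNF260, from 128 and 105 to 206 and 196 CPM (0.79, limma adjusted p 0.0331), and ZNF345, from 16.6 and 19.9 to 39.96 and 36.2 CPM (1.02, limma adjusted p 0.0274).

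The role lists held few changes at this stage. ZNF644 alone of the 12 chromatin members passed the test (8.33% lower beside 14.5% of all genes). Of the members listed as promoter activators ZNF281 and ZNF711 passed, both lower (25% beside 14.5%), and of the translation, RNA and developmental lists none. At an adjusted p over 0.05 ZNF148, a relative of ZNF281, stood at 12.6 and 10.4 CPM in control and 2.96 and 7.37 CPM in edited libraries (log2 difference -1.11, limma adjusted p 0.0721). ZNF143 stood at 103 and 106 against 131 and 138 CPM (0.36, limma adjusted p 0.362) and ZNF207 at 198 and 223 against 178 and 209 CPM (-0.12, limma adjusted p 0.757).

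The stages were compared next. Their log2 differences use no library in common. The tests do share the spread, which was pooled over all groups, so calls at both stages are not independent. The 4-cell comparison called 72 members and the 8-cell comparison 17 (7.87% beside 15.6% of all genes), and 11 were in both sets, which is 15.3% of the first and 64.7% of the second. All 11 had the same direction. Higher at both were ZNF260 and ZNF345 (0.926% of members beside 0.396% of all genes), and lower at both were ZNF25, ZNF41, ZNF146, ZNF189, ZNF385B, ZNF527, ZNF565, ZNF576 and ZNF644 (4.17% beside 12.4%). Over all genes 5419 were called at the 4-cell stage and 1895 at the 8-cell stage, with 48 higher and 1510 lower at both. ZNF345 stood at 11.6 and 18.4 against 48.2 and 37.9 CPM at the 4-cell stage (log2 difference 1.48, limma adjusted p 0.000883). Another 6 members were called at the 8-cell stage alone, ZNF84, ZNF281, ZNF350, ZNF639, ZNF660 and ZNF711, all lower. A share of all genes called at that stage alone is not given here. Across the 216 members, which are not replicates, Pearson's r between the 4-cell and 8-cell differences was 0.645 and Spearman's rho 0.563, beside 0.721 and 0.625 over all genes.

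**Figure D3:**
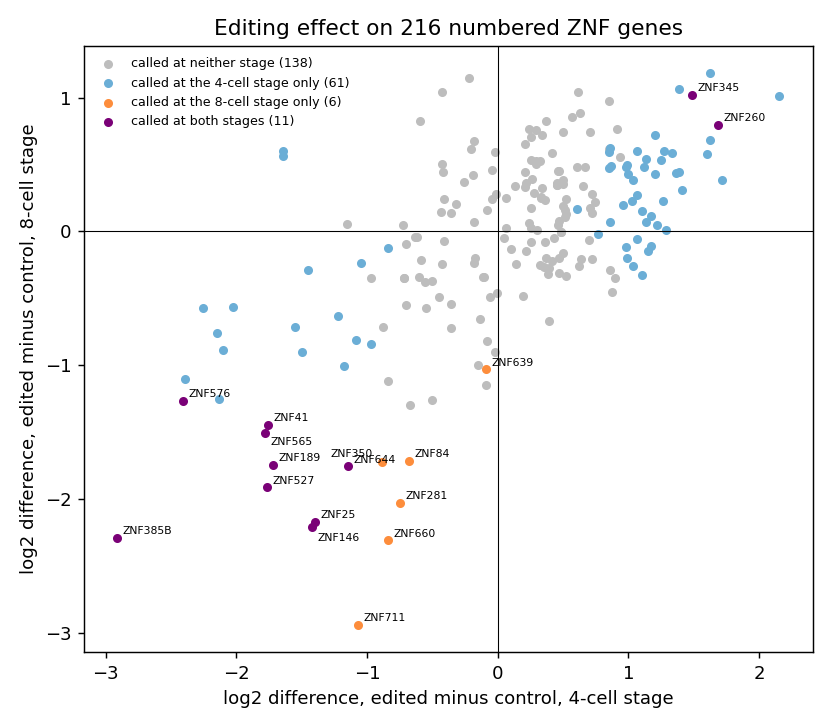
Log2 difference between edited and control embryos for the 216 members at the 4-cell stage (horizontal axis) and the 8-cell stage (vertical axis), coloured by the stage at which each was called. The 11 members called at both stages lie at the lower left, except ZNF260 and ZNF345 at the upper right.

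The difference itself was tested as the 8-cell effect minus the 4-cell effect. For 2 members (0.926% beside 3.96% of all genes) it passed the test, 1 higher (0.463% beside 1.95% of all genes) and 1 lower (0.463% beside 2.00%). ZNF106 was higher in edited embryos at the 4-cell stage, while at the 8-cell stage it stood at 127 and 129 CPM in control and 98.3 and 105 CPM in edited libraries, so that the difference of effects was -1.43 (SE 0.355, limma adjusted p 0.0392). ZNF789 stood at 4.08 and 4.81 CPM in 4-cell control and 0.781 and 0.702 CPM in 4-cell edited libraries, and at 1.49 and 1.45 against 2.57 and 2.73 CPM at the 8-cell stage (difference of effects 2.21, SE 0.522, limma adjusted p 0.0352). ZNF789 lies under the level set for naming genes and was named after its values were seen. For ZNF711 and ZNF281 the difference between stages did not pass (-1.87 and -1.28, limma adjusted p 0.127 and 0.146). The count of 2 was 0 without the first 4-cell control library, 11 without the second, 4 without the second 8-cell control library, and 0 without any 1 of the other 5. In the fits that called 0 by limma, between 13 and 43 members had an unadjusted p under 0.05.

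Stage was then compared within each condition. Between stages, control embryos had 9 called members (4.17% beside 9.02% of all genes), of which 4 rose from 4 to 8 cells (1.85% beside 2.75%) and 5 fell (2.31% beside 6.27%). Both 8-cell libraries lay above both 4-cell libraries for 69 members (31.9% beside 28.4%) and below them for 45 (20.8% beside 30.8%). This comparison shares the 4-cell control libraries with the comparison of edited embryos above. ZNF106 rose from 51.2 and 84.9 to 127 and 129 CPM (log2 difference 0.94, limma adjusted p 0.0333), ZNF280B from 26.8 and 38.2 to 62.3 and 57.6 CPM (0.88, limma adjusted p 0.0438), ZNF260 from 53.3 and 81.5 to 128 and 105 CPM (0.80, limma adjusted p 0.0493) and ZNF214 from 3.8 and 6.1 to 13.5 and 10.2 CPM (1.13, limma adjusted p 0.0492). Those that fell were ZNF385B from 247 and 153 to 87.5 and 97.1 CPM (-1.07, limma adjusted p 0.0416), ZNF511 from 40.3 and 29.4 to 11.1 and 19.3 CPM (-1.18, limma adjusted p 0.0438), ZNF771 from 59.1 and 39.1 to 9.87 and 28.9 CPM (-1.44, limma adjusted p 0.0449), and ZNF140 and ZNF358, which have means under 5 CPM. With the oocyte scaling none of the 4 that rose was called. All 9 had limma adjusted p between 0.0333 and 0.0493. Without the first 4-cell control library 0 were called by limma (17 at an unadjusted p under 0.05), without the second 23, and without the first 8-cell control library 0 (16 at an unadjusted p under 0.05). Leaving out 1 of the other 5 libraries gave 1 to 5 calls. By edgeR 0 were called, with 31 at an unadjusted p under 0.05.

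In edited embryos 4 members were called between stages (1.85% beside 5.18% of all genes), 2 of them higher at the 8-cell stage (0.926% beside 1.45%) and 2 lower (0.926% beside 3.73%). Groups did not overlap for 28 members that were higher (13.0% beside 22.7%) and for 64 that were lower (29.6% beside 30.2%). ZNF805, the member with the second highest number of reads, rose from 373 and 349 to 818 and 906 CPM, by 1.25 (SE 0.206, limma adjusted p 0.00517). In control embryos it stood at 431 and 544 CPM at the 4-cell and 631 and 584 CPM at the 8-cell stage (0.33, limma adjusted p 0.308). The edited 8-cell libraries were thus the highest of all 8 and the edited 4-cell libraries the lowest, and the test of the difference between conditions gave 0.93 (limma adjusted p 0.0785). ZNF3 rose from 24.8 and 13.0 to 37.8 and 45.0 CPM (1.15, limma adjusted p 0.0474, and 0.104 with the oocyte scaling). ZNF711 fell from 6.19 and 8.60 to 0.0299 and 2.31 CPM (-2.17, limma adjusted p 0.0226) and ZNF281 from 6.83 and 11.96 to 2.57 and 3.47 CPM (-1.33, limma adjusted p 0.0443). By limma 0 were called without the second 4-cell edited library (14 at an unadjusted p under 0.05), 1 without either 8-cell edited library and 3 to 6 without any 1 of the other 5.

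Over the 4 groups, the 4-cell controls had the lowest mean for 101 members (46.8% beside 39.5% of all genes) and the 4-cell edited embryos the highest for 78 (36.1% beside 26.5%). The difference between stages was positive for 85 members in edited embryos (39.35% beside 47.24% of all genes) and for 131 in controls (60.65% beside 50.38%). Scaled to the oocyte markers, the member median in controls turned from 0.12 to -0.22, and that of all genes was -0.36. Of all members 136 passed the test in none of the 5 comparisons. The matching count over all genes is not given here, so this says nothing particular to the members. These 136 included ZNF706, a small protein with a single finger, which stood between 345 and 586 CPM in all 8 libraries, and ZNF638 between 159 and 262 CPM.

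Zinc finger genes arose by tandem duplication, and many still lie next to each other. All 216 members were placed by symbol in the RefSeq gene order of assembly ARS-UCD2.0, and 61 had another member as the next protein-coding gene, in 22 runs of up to 7 genes. The assembly the authors used is not given in the sources used here, so only the order of genes was taken. Of these 61, 16 were called higher (26.2% beside 18.9% of all genes) and 8 lower (13.1% beside 25.8%) in edited embryos at the 4-cell stage, with a median log2 difference of 0.47. Of the other 155, 30 (19.4%) and 18 (11.6%) were called, with a median of 0.25, and the difference between these sets was not tested. Neighbours did not always move together. In 2 runs called members went both ways and in 2 others they went one way.

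The longest run holds ZNF146, ZNF565, ZNF567, ZNF461, ZNF382, ZNF260 and ZNF566. At its one end ZNF146 fell from 12.8 and 13.1 to 3.10 and 5.64 CPM at the 4-cell stage (log2 difference -1.42, limma adjusted p 0.0144) and ZNF565 from 6.4 and 5.69 to 2.02 and 0.380 CPM (-1.78, limma adjusted p 0.00307). Further along ZNF461 rose from 8.11 and 13.9 to 33.5 and 25.1 CPM (1.36, limma adjusted p 0.00429), ZNF260 as given above and ZNF566 from 7.56 and 7.24 to 19.5 and 12.6 CPM (0.99, limma adjusted p 0.0282). ZNF567 and ZNF382 had log2 differences of -0.02 and -0.04 and did not pass. A run of 5 began with ZNF527, which fell, and went on with ZNF569 (1.17), ZNF570 (0.14, which did not pass), ZNF420 (0.995) and ZNF345 (1.48), where 3 rose. ZNF569 stood at 33.8 and 45.8 CPM in control and 84.6 and 95.2 CPM in edited libraries. In ZNF214 and ZNF215 both neighbours rose. In a run of ZNF605, ZNF26, ZNF84 and ZNF140 the last fell at the 4-cell stage, from 7.91 and 8.71 to 2.92 and 1.26 CPM (-1.64, limma adjusted p 0.00621), and ZNF84 at the 8-cell stage, from 4.78 and 5.03 to 1.49 and 0.299 CPM (-1.71, limma adjusted p 0.00669).

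**Figure D4:**
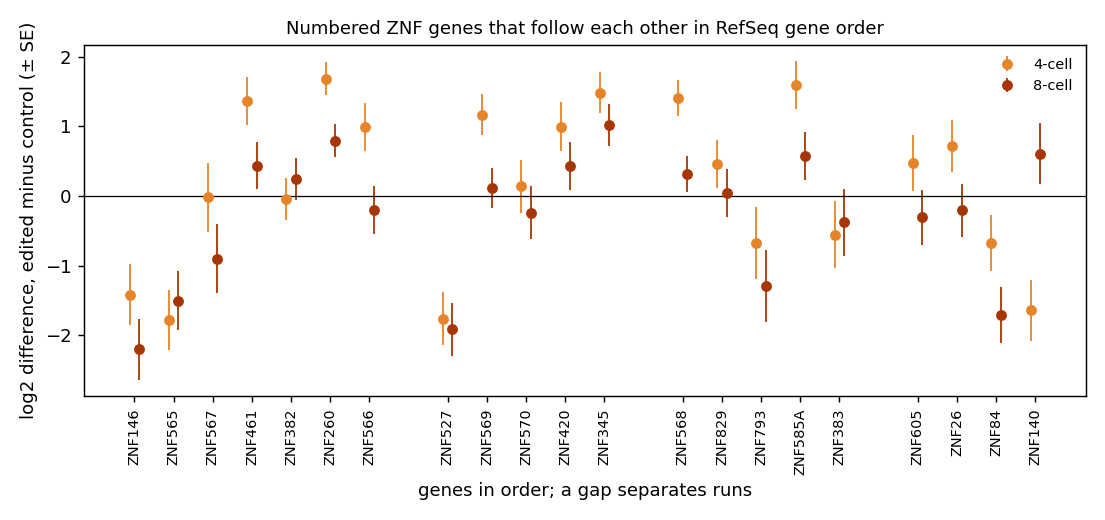
Log2 difference between edited and control embryos, with its SE, for the 4 runs of at least 4 members that follow each other in RefSeq gene order. In the run of 7 ZNF146 and ZNF565 lie below 0 at both stages, whereas ZNF260 lies above 0 at both.

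KRAB proteins act through corepressors, and 36 of 38 listed genes of this machinery were tested. At the 4-cell stage 11 were called higher (30.6% beside 18.9% of all genes) and 10 lower (27.8% beside 25.8%), with a median log2 difference of 0.15. The 8-cell comparison called 1 of them higher (2.78% beside 1.08%) and 1 lower (2.78% beside 14.5%). TRIM28, the scaffold that KRAB domains bind, stood at 19.9 and 19.4 CPM in control and 16.5 and 9.51 CPM in edited libraries at the 4-cell stage (-0.60, limma adjusted p 0.192) and at 9.98 and 10.8 in edited against 10.0 and 18.5 CPM in control libraries at the 8-cell stage (-0.36, limma adjusted p 0.568). SETDB1 rose at the 4-cell stage, from 32.2 and 50.7 to 76.8 and 68.5 CPM (0.83, limma adjusted p 0.0177, and 0.353 with the oocyte scaling). ZFP57, a KRAB protein of imprints, had at most 0.723 CPM in any library and was not tested. TASOR, a subunit of the HUSH silencing complex, rose from 37.2 and 59.8 to 168 and 148 CPM (1.72, limma adjusted p 6.85e-05), ATRX, a chromatin remodeller, from 144 and 228 to 428 and 484 CPM (1.32) and SUMO2, the modifier that KRAB silencing uses, from 1116 and 858 to 1882 and 2687 CPM (1.20, limma adjusted p 0.000578, and 0.0607 with the oocyte scaling). CBX3, a heterochromatin protein, fell from 261 and 203 to 42.4 and 94.4 CPM at the 4-cell stage (-1.85, limma adjusted p 0.000195) and stood at 131 and 130.2 CPM in control against 14.6 and 17.3 CPM in edited libraries at the 8-cell stage (-2.96, limma adjusted p 9.21e-06). SUMO3 and HDAC1 also fell at the 4-cell stage (-1.65 and -0.83).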

How the data were processed

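Values are CPM in a table deposited by the authors for the whole series, with 1 row per gene symbol. The submitters' processing notes name Trim Galore 0.6.7, HISAT2 2.2.1 and featureCounts 2.0.1 without roles. The genome build, annotation and scaling are not given in the sources used here. In each library 100% of the deposited CPM values were whole multiples of 1 step, within 0.05 reads, and the recovered reads gave the depth, at which 3 reads are 0.0858 to 0.0899 CPM. Intervals from counting cover counting error only. Of 12 columns 8 matched the labels, and the other 4 were not used.

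Differences are on the log2(CPM + 1) scale, which understates those of low genes. They were fitted with limma 3.58.1 (R 4.3.3) with a trend, 1 mean per group, on the 12129 genes that averaged 1 CPM or more, and p-values were adjusted by Benjamini-Hochberg over all of them. Alternatives used edgeR 4.0.16 and DESeq2 1.42.0 on recovered reads, other scalings, filters and pseudocounts, a replicate block and each library left out. The main limma fit was tested on simulated reads, with known changes between edited and control at the 4-cell stage in genes of at least 5 CPM. The other comparisons and the alternatives were not tested in this way.

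The members and all gene lists were chosen with earlier results of these data known. Named genes are the members of the role lists, the 8 members with the highest mean, and per comparison and direction the 6 smallest p among called members with a mean of at least 5 CPM whose groups did not overlap. For corepressors the rule took 3 per direction in each comparison of edited with control embryos, and TRIM28, SETDB1 and ZFP57 always. Members of the longer runs of neighbours, and those called at both stages or at the 8-cell stage alone, were named as sets. ZNF140, ZNF358 and ZNF789, under 5 CPM, complete counts and were named after their values were seen. Protein patterns planned for grouping were not analysed here. The values of 1 corepressor gene are not reported here.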

Additional observations from a re-analysis of the deposited data

Results flagged for a closer look

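The effect of editing differed between stages by the test of the difference itself for 2 members. For ZNF106 edited minus control gave a log2 difference of 1.10 with 4 cells and -0.33 with 8 cells, so that the 8-cell effect minus the 4-cell effect was -1.43 (SE 0.355, limma adjusted p 0.0392). In ZNF789 the differences were -1.64 and 0.56, and that of the effects 2.21 (SE 0.522, limma adjusted p 0.0352), with 4.81 CPM as its highest level in any library. With the oocyte scaling neither passed (limma adjusted p 0.0743 and 0.0510). Dixon's rule for a library far from its group was not applied, since each group has 2 libraries.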

How the results depend on the processing

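Among the named genes no called difference changed sign in another setting. With the oocyte scaling the member medians at both stages and for stage in controls turned negative. At the 4-cell stage more members were then called lower than higher. Scaled to the oocyte list, members called at the 4-cell stage were 13 higher and 44 lower (46 and 26 before), at the 8-cell stage 0 higher by limma (0 at an unadjusted p under 0.05) and 26 lower (2 and 15 before), between stages 17 in controls (9 before) and 13 in edited embryos (4 before), and 0 for the difference of effects (33 at an unadjusted p under 0.05; 2 before). The member medians were then -0.12, -0.30, -0.22 and -0.42, from 0.30, 0.07, 0.12 and -0.12. With the cumulus covariate limma called 0 higher and 0 lower at both stages, 0 between stages in controls and in edited embryos (9 at an unadjusted p under 0.05 in each) and 1 for the difference of effects. The covariate cannot be separated from editing, as given above. Of the members called at the 4-cell stage 46 higher and 18 lower were also called by edgeR.

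For the 2 higher at the 8-cell stage other settings gave 4 (pseudocount 5 CPM), 1 (no filter), 4 (filter at 5 CPM), 5 (TMM), 7 (only the groups compared) and 7 (DESeq2). The filter at 5 CPM, which tests fewer members, gave 14 lower at the 4-cell stage and a median of 0.47. Stage in controls gave 3 (pseudocount 0.5 CPM), 5 (TMM), and 0 by limma without a filter (35 at an unadjusted p under 0.05) and with only the groups compared (31), and 0 by edgeR (31). Stage in edited embryos gave 1 (pseudocount 5 CPM), 0 by limma without a filter (22 at an unadjusted p under 0.05) and 10 by DESeq2. The difference of effects gave 0 by limma without a filter (34 at an unadjusted p under 0.05), 1 (filter at 5 CPM), 0 by edgeR (32) and 7 by DESeq2, and was not run with only the groups compared, which are all 4. Apart from the filter at 5 CPM, the cause was not tested.

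Leaving out 1 library each gave 22 to 49 higher and 18 to 26 lower at the 4-cell stage, 0 to 6 and 10 to 15 at the 8-cell stage, 0 to 23 for stage in controls, 0 to 6 in edited embryos and 0 to 11 for the difference of effects, with medians of 0.16 to 0.36, -0.02 to 0.18, 0.00 to 0.21 and -0.23 to -0.01. The labels give each library a replicate number and a letter, D for the second of every group, C for the first of both edited groups and A or B for the first of the controls, and do not say what either marks. Deviations of libraries with the same number correlated at 0.11, -0.09, -0.30 and 0.02 in the 4 comparisons. With the replicate block the 4-cell comparison called 45 members higher and 26 lower and the 8-cell comparison 3 and 15, 4 differed between stages in controls and 3 in edited embryos, and 3 for the difference of effects. Identical rows counted once, an alternative chosen after seeing the data, changed no count. Of 56 called differences of named genes 36 passed with the oocyte scaling, 1 with the covariate, and 39 to 54 without 1 library. With 2 libraries a group, the spread is that of all 4 groups pooled, and a lone library is assumed to vary like the rest.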

Other observations

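Zinc finger families with other names were counted in the same fits. Of 28 numbered ZBTB genes, whose proteins join zinc fingers to a BTB domain through which they pair, limma called 13 higher (46.4% beside 18.9% of all genes) and 3 lower (10.7% beside 25.8%) in edited embryos at the 4-cell stage, and 1 each at the 8-cell stage (3.57% beside 1.08% and 14.5%). Their summed level was 551 and 659.7 CPM in the 4-cell control libraries, 1032 and 1034 CPM in the 4-cell edited, 732 and 777 CPM in the 8-cell control and 898 and 860.5 CPM in the 8-cell edited libraries. Of 14 ZSCAN and ZKSCAN genes, which carry a SCAN domain for pairing, limma called 2 higher (14.3% beside 18.9%) and 1 lower (7.14% beside 25.8%) at the 4-cell stage, and 0 higher (beside 1.08%) and 2 lower (14.3% beside 14.5%) at the 8-cell stage. Of 15 numbered ZFP genes it called 5 higher (33.3%) and 2 lower (13.3%) at the 4-cell stage, and 0 higher and 1 lower (6.67%) at the 8-cell stage, beside the same shares of all genes. These families were not recomputed under the other scalings.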
